A study of Homo sapiens with 23 samples.

Results

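MHC class I molecules carry peptides cut inside the cell to its surface, where cytotoxic T cells read them. A class I molecule is a heavy chain (here HLA-B, HLA-E and HLA-F) held together with the invariant light chain beta-2-microglobulin (B2M). TAP1 and TAP2 form the transporter that moves peptides into the endoplasmic reticulum, TAPBP (tapasin) bridges the transporter to the empty heavy chain, ERAP1 trims the peptides to fit, and NLRC5 is the transactivator of class I genes in the nucleus. Loss of class I molecules from the surface is well known in diffuse large B-cell lymphoma (DLBCL). These 9 genes were chosen by name, with no measured value in the rule, but with earlier results of these data known. They are some of the genes of class I heavy chains and of peptide loading that the array's annotation lists. Others, such as HLA-C, TAPBPL and ERAP2, are given further below as loading partners.

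The arrays held polysomal RNA, that is RNA from the heavy part of a sucrose gradient (fractions 9 to 11, pooled) where mRNAs carry many ribosomes, so a value gives the polysomal level of a gene. A change in total mRNA and a change in ribosome loading cannot be told apart from it. The 2 cell lines were SUDHL-2 and SUDHL-4, each 1 established DLBCL line grown in serum-containing medium, with no other genotype given. In the first experiment cells received 40 nM INK128, an inhibitor of the mTOR kinase, for 24 h or the vehicle DMSO at 0.01%. In the second they were kept for 48 h in sealed flasks with 20 mM ethanol (EtOH), or with water in place of EtOH. Of the 23 arrays, each of the 8 groups had 3, except SUDHL-2 with EtOH, which had 2. Because the experiments differed in agent, vehicle and time, these cannot be told apart wherever EtOH arrays are set against INK128 arrays, or water arrays against DMSO arrays.

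Each array detected 14699 to 17098 probes at a detection p of at most 0.02, and arrays of 1 group correlated at 0.957 to 0.997 over the probes kept. Of 8 B cell markers 6 were detected on every array of every group, whereas at most 2 of 8 T and NK cell markers and 1 of 6 myeloid markers were on the arrays of any group. Of 4 epithelial markers EPCAM was detected on every array of each SUDHL-2 group, where the list's summed signal was 1388 to 4630, and on all arrays of no SUDHL-4 group, where the sum was 301 to 429. Its part in the differences between the lines was not tested. The summed signal of the B cell markers was 4007 to 10371 in SUDHL-2 and, in SUDHL-4, 39657 to 83660. Of 8 genes of activated B-cell-like DLBCL SUDHL-2 arrays detected 7 and SUDHL-4 arrays 3, while of 8 germinal center genes they detected 3 or 4 and 7. In such bulk RNA, fewer cells of a type and less RNA per cell cannot be told apart.

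The array listed 15 probes for the 9 genes, of which 13 were detected on all arrays of at least 1 group and were kept, among 18136 kept of 47231 probes with values. All 9 genes kept at least 1 probe, among 14636 entries tested (10546 named genes and 4090 probes without a gene name). One probe of ERAP1 was detected on 0 arrays and one of HLA-F on 3, and both were left out. NLRC5 was detected on 3 of 23 arrays, all of them SUDHL-2 with water (signals 73.3 to 86.5), and not above background in any other group, so it is counted among the 9 genes but given no fold change. Its value does enter the medians and the mean of the 9 genes given below. Levels below are scaled log2 signals, in which 0 is the average kept probe of an array and 1 unit is a 2-fold step of the signal after arrays were brought to the same spread. A gene with several probes has their mean, and a level of 1 gene says nothing against the level of another. Class I genes have close relatives and many alleles, so signals of the HLA probes may include related transcripts and may depend on the alleles a line carries, which was not tested.

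Class I genes are textbook targets of interferon and of NF-kB, and their promoters are known for such elements. RefSeq promoter windows (GRCh38.p14, 250 bases before to 50 after a start) were given for 7 of the 9 genes, all but HLA-E and NLRC5, in 9 windows. The core of the interferon element (the word GAAA, any 2 bases, and GAAA again), searched on both strands, lay in the promoters of 6 of these 7 genes (B2M, ERAP1, HLA-F, TAP1, TAP2 and TAPBP, in 6 of 9 windows) and in 3.57% of 35116 promoters of the same length. The NF-kB consensus lay in those of 5 genes (B2M, ERAP1, HLA-B, TAP1 and TAPBP) and in 5.91% of all promoters. The elements of the genes that moved in the results below are shown, in the direction of the gene, with the motif in capitals (reading TTTC, 2 bases, TTTC where it lies on the other strand).
HLA-B NF-kB element: cgcagcgttgGGGATTCCCCactcccctga
TAP1 interferon element: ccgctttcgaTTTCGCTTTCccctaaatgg
TAP2 interferon element: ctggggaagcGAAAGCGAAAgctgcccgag
HLA-F interferon element: ctccccagagTTTCTCTTTCtctcccaacc
TAPBP interferon element: ggaggaaagtGAAAGTGAAAggaggaagag
These stretches lie at chr6:31357336-31357365 (minus strand, HLA-B), chr6:32853813-32853842 (minus, TAP1), chr6:32838778-32838807 (minus, TAP2), chr6:29723268-29723297 (plus, HLA-F) and chr6:33314073-33314102 (minus, TAPBP). The HLA-B motif begins 176 bases before the start, and those of TAP1, TAP2, HLA-F and TAPBP 128, 58, 156 and 14 bases before it. A match to these letters is a description of the sequence and no measure of binding. In B2M, TAP1 and TAPBP the interferon element came as 2 overlapping matches, and none of these overlapped an NF-kB match.

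The first comparison asked what INK128 did to polysomal class I RNA in SUDHL-4. HLA-B, a classical heavy chain, and HLA-E, the heavy chain read by NKG2A receptors of NK cells, rose with INK128, while B2M and the transporter did not pass the test. The HLA-B level was -0.10, 0.27 and -0.06 on the DMSO arrays and 1.66, 1.91 and 1.39 on the INK128 arrays. All INK128 arrays were thus above all DMSO arrays, as the signals were before scaling (279.7 to 344.4 with DMSO, 725.3 to 898 with INK128). HLA-B rose by 1.61 ± 0.18 (log2 difference ± SE), or 3.06-fold, with an adjusted p of 0.00011 in limma. Among all 14636 entries this change lay at the 99.8th percentile.

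The HLA-E level in SUDHL-4 was 2.97, 3.01 and 2.99 with DMSO and 4.40, 4.37 and 3.84 with INK128. The DMSO arrays lay within 0.1 unit of each other, and the lowest INK128 array was above them all. HLA-E rose by 1.21 ± 0.21, or 2.31-fold (adjusted p = 0.00215). HLA-F did not follow: its log2 difference was 0.12 ± 0.21 (adjusted p = 0.806), with a 95% interval from -0.34 to 0.59. The interval for B2M ran from -0.57 to 0.44, that for TAP1 from -0.33 to 0.32 and that for TAP2 from -0.26 to 0.48, none of them past the threshold. TAPBP was higher on every INK128 array (0.02, 0.12 and -0.17, against -0.38, -0.25 and -0.37 with DMSO), but its log2 difference of 0.32 ± 0.15 had an adjusted p of 0.176. Its bright probe alone differed by 0.78 ± 0.25 (adjusted p = 0.0566), with signals of 1781 to 2136 with DMSO and 2582 to 3589 with INK128.

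In all, 2 of 9 genes rose and 0 fell with INK128 in SUDHL-4, where 8.27% of all entries rose and 15.4% changed in either direction. The median log2 difference of the 9 genes was 0.11, against -0.06 over all entries. Like HLA-B, HLA-E and TAPBP, 18.3% of all entries were higher on every INK128 array than on every DMSO array. B cell markers moved as well: 4 of 6 measured markers rose, their summed signal went from 44382 to 49016 with DMSO to 61991 to 83660 with INK128, and 5 of 7 germinal center genes rose. Their part in the rise of HLA-B and HLA-E was not tested.

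**Figure D1:**
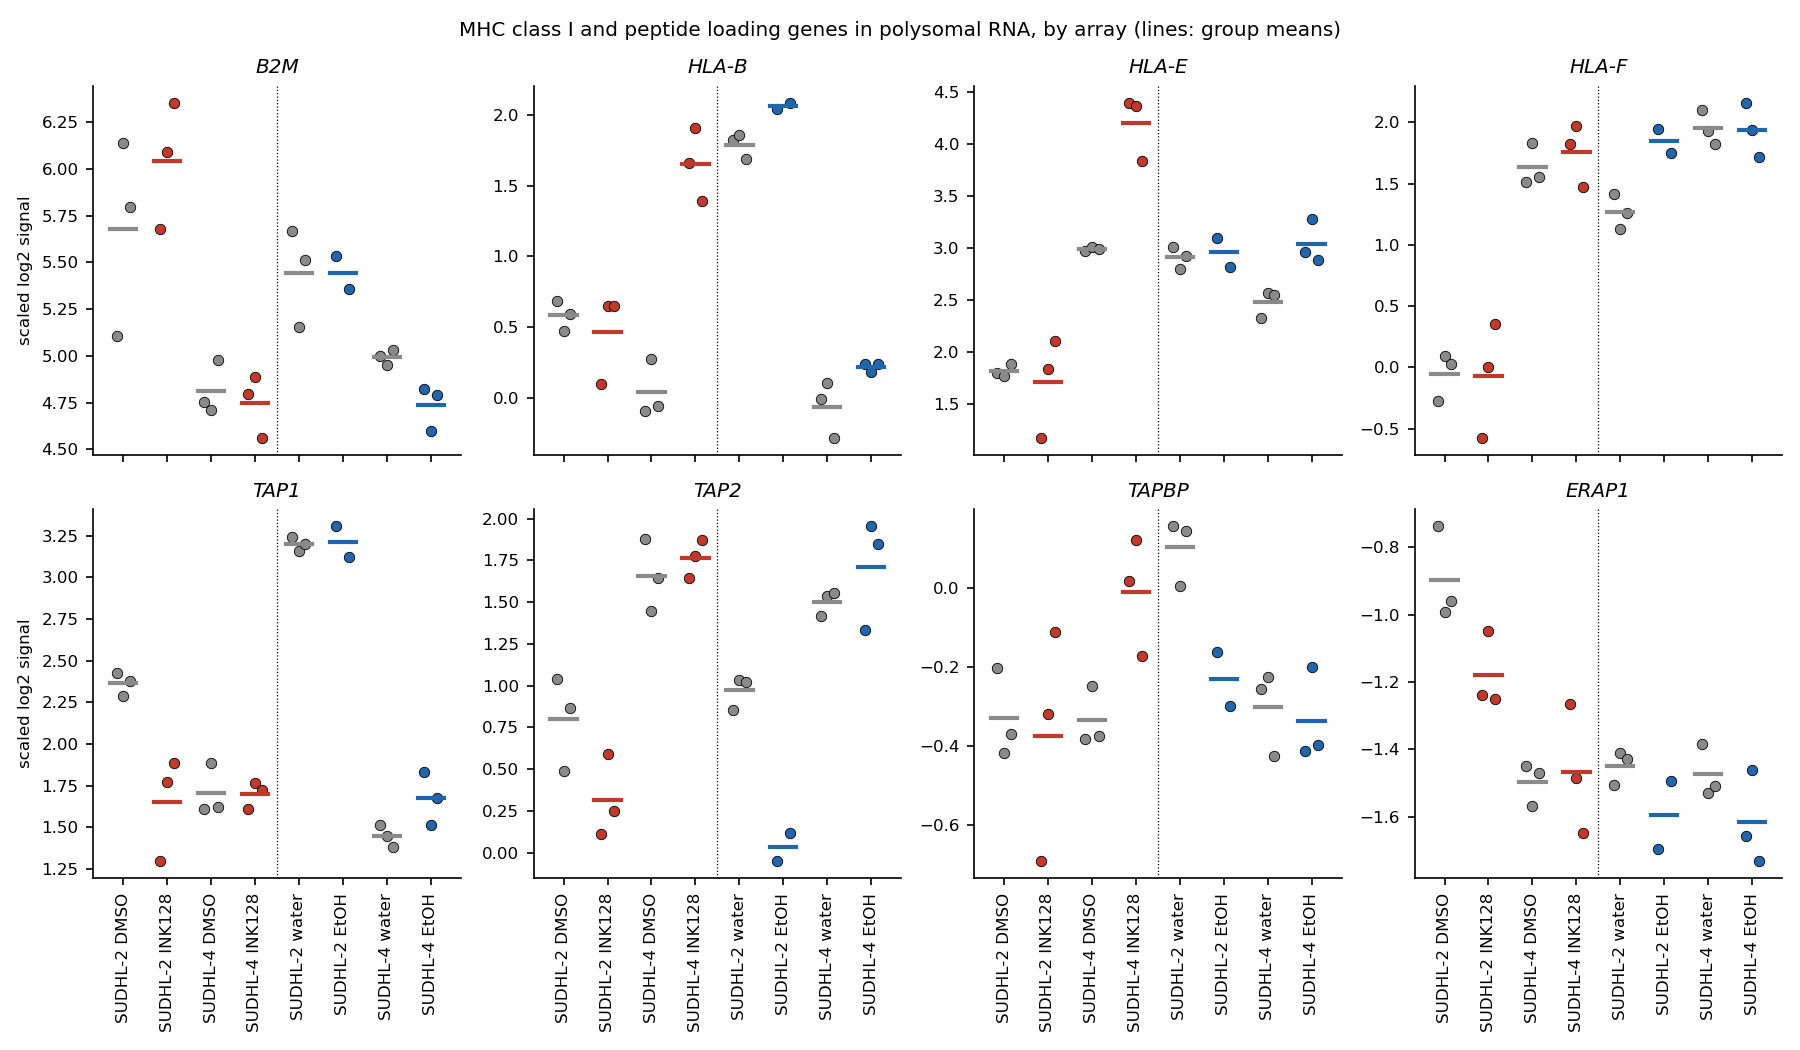
Scaled log2 signal (vertical axis, own range in each panel) of 8 of the 9 genes on each of the 23 arrays, with group means as horizontal lines, INK128 experiment left and EtOH experiment right of the dotted line (grey: control, red: INK128, blue: EtOH). HLA-B and HLA-E of SUDHL-4 stand above their DMSO arrays with INK128, TAP1 of SUDHL-2 stands below, and the SUDHL-2 levels of HLA-B, HLA-E, HLA-F and TAP1 are higher on water than on DMSO arrays.

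In SUDHL-2 the same treatment gave another picture. TAP1, an ATP-binding subunit of the peptide transporter, fell, and none of the heavy chains passed the test. The TAP1 level was 2.42, 2.29 and 2.38 with DMSO and 1.30, 1.77 and 1.88 with INK128. The groups did not overlap, and the INK128 arrays were the more spread out, with replicate 1 the lowest. TAP1 fell by 0.71 ± 0.15 on the log2 scale, a 1.64-fold fall (adjusted p = 0.0217). The call was lost without DMSO replicate 1 (adjusted p = 0.0665) or DMSO replicate 3 (adjusted p = 0.0800), and also when the SUDHL-2 arrays were fitted alone (adjusted p = 0.173). Without INK128 replicate 1, the lowest array, TAP1 fell by 0.53 (adjusted p = 0.0259).

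TAP2, the other subunit of the transporter, differed by -0.48 ± 0.17 in SUDHL-2 (adjusted p = 0.150), with levels of 0.49 to 1.04 with DMSO and 0.11 to 0.59 with INK128 that overlapped. Its probes gave -0.52 and -0.45. ERAP1 was lower on every INK128 array (-1.24, -1.05 and -1.25, against -0.74, -0.99 and -0.96), with a log2 difference of -0.28 ± 0.13 and an adjusted p of 0.261. The levels of HLA-B, HLA-E and HLA-F with INK128 overlapped those with DMSO, and their log2 differences were -0.12 ± 0.18, -0.11 ± 0.21 and -0.02 ± 0.21. For HLA-E the lowest INK128 array, at 1.18, was replicate 1 again, and the others were at 1.84 and 2.11. Thus 1 of 9 genes fell and 0 rose, where 1.47% of all entries fell and 3.62% changed in either direction. The median of the 9 genes was -0.11 and that of all entries 0.03. Like TAP1 and ERAP1, 7.99% of all entries were lower on every INK128 array than on every DMSO array.

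Whether the lines differed in their response to INK128 was tested in the same fit. The HLA-B response was 1.73 ± 0.25 lower in SUDHL-2 than in SUDHL-4 on the log2 scale (adjusted p = 0.00401), and the HLA-E response 1.32 ± 0.30 lower (adjusted p = 0.0277). These were 2 of 9 genes, at a background of 4.32% of entries whose responses differed. The HLA-E call was lost on leaving out any of 7 arrays, namely SUDHL-2 DMSO replicates 1 and 3, SUDHL-4 DMSO replicates 1, 2 and 3 and SUDHL-4 INK128 replicates 1 and 2, with adjusted p between 0.0537 and 0.0740, and without a detection filter (adjusted p = 0.105). Without SUDHL-2 INK128 replicate 1 it held, at -1.05 (adjusted p = 0.0173). The TAP1 response was 0.71 ± 0.21 lower in SUDHL-2 (adjusted p = 0.0822), and it passed the threshold without SUDHL-2 INK128 replicate 3 (adjusted p = 0.0480) and with all 23 arrays in 1 fit (adjusted p = 0.0133).

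**Figure D2:**
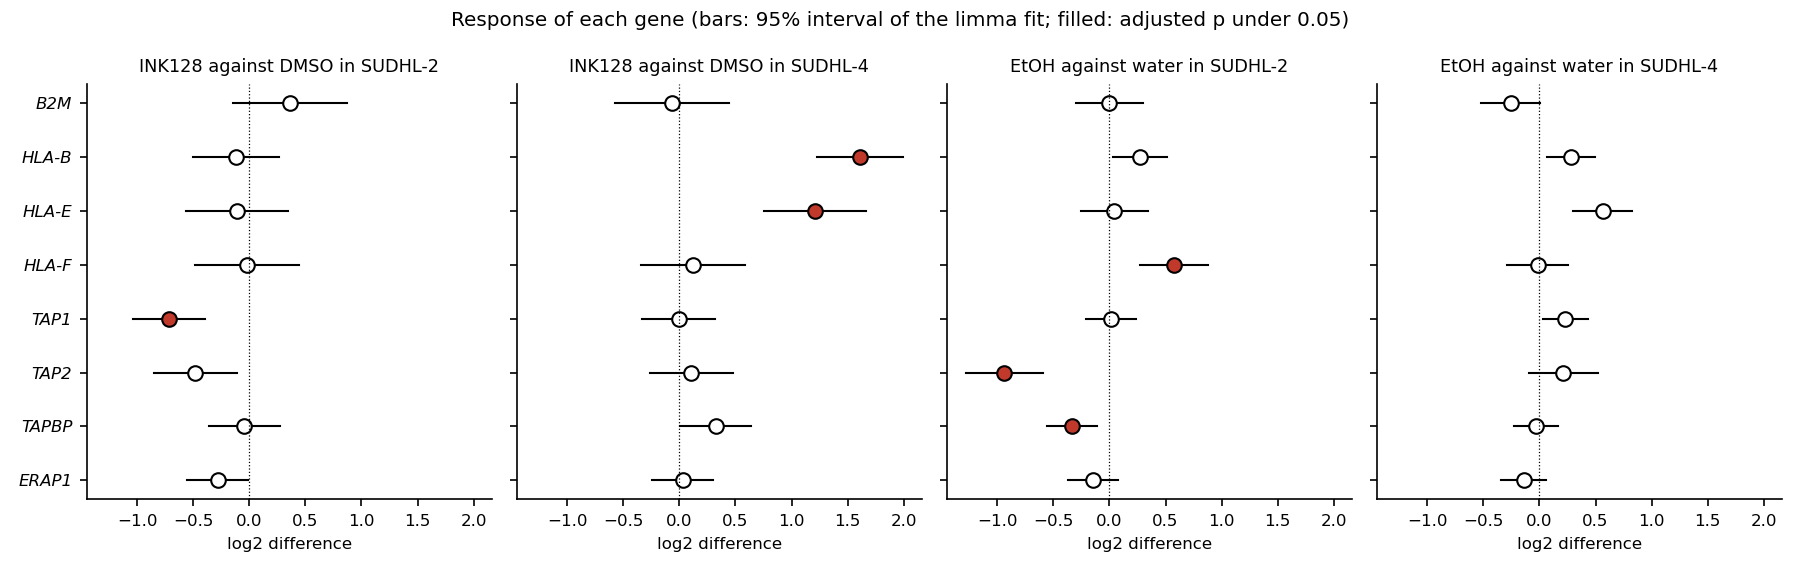
Log2 difference between treated and control arrays (horizontal axis, 0 marked by the dotted line) of 8 genes in the 4 treatment comparisons, as points with 95% intervals of the limma fit. Filled points passed an adjusted p of 0.05: TAP1 in SUDHL-2 and HLA-B and HLA-E in SUDHL-4 with INK128, and HLA-F, TAP2 and TAPBP in SUDHL-2 with EtOH.

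The next comparison asked what EtOH did in SUDHL-2, where 2 EtOH arrays stood against 3 water arrays. HLA-F rose, while TAP2 and TAPBP fell, and the rest of the 9 genes did not pass the test. HLA-F, a nonclassical heavy chain, had levels of 1.42, 1.13 and 1.26 with water and 1.94 and 1.75 with EtOH. Both EtOH arrays were above all water arrays. HLA-F rose by 0.58 ± 0.14, or 1.49-fold (adjusted p = 0.0157). The call was lost without EtOH replicate 1 (adjusted p = 0.130) or EtOH replicate 2 (adjusted p = 0.0508), when 1 EtOH array is left and is assumed to vary like the other groups. It was also lost under quantile normalization (adjusted p = 0.0544), without a detection filter (adjusted p = 0.0838) and with all 23 arrays in 1 fit (adjusted p = 0.0908). HLA-B was also higher on both EtOH arrays (2.04 and 2.09, against 1.82, 1.86 and 1.69), with a log2 difference of 0.27 ± 0.11 and an adjusted p of 0.122. HLA-E and B2M overlapped their water arrays, with log2 differences of 0.04 ± 0.14 and 0.00 ± 0.14. TAP1 differed by 0.02 ± 0.10, with a 95% interval from -0.21 to 0.24.

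TAP2 had levels of 0.86, 1.04 and 1.02 with water and -0.05 and 0.12 with EtOH in SUDHL-2, so that the groups stood well apart. It fell by 0.94 ± 0.16 on the log2 scale (adjusted p = 0.00241), and the call held without any 1 array. The fall came from 1 of its 2 probes. The dimmer probe had signals of 272.4, 368.5 and 365.3 with water and 71.1 and 75.1 with EtOH, a level at which it was still detected on both arrays but only 1.11 and 1.15 times above the weakest detected signal. It fell by 1.92 ± 0.29 (adjusted p = 0.00123). The brighter probe had signals of 1007 to 1916 with water and 974.8 to 1483 with EtOH, and its log2 difference was 0.04 ± 0.14 (adjusted p = 0.885). The probes of TAP2 thus differed by 1.96 in their response. Of 2790 genes with more than 1 kept probe, 1.58% had probes that differed by at least as much in this comparison, and the median difference between the probes of a gene was 0.23. Whether these probes read different TAP2 transcripts was not tested.

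TAPBP fell by 0.33 ± 0.10 (adjusted p = 0.0430), with levels of 0.16, 0.01 and 0.14 with water and -0.16 and -0.30 with EtOH. Of its 3 probes, the bright one and a dim one were both lower with EtOH, but by different amounts. The bright probe, with signals of 2915 to 3710 with water and 2365 to 2504 with EtOH, differed by -0.29 ± 0.14 (adjusted p = 0.215). A dim probe at 156 to 183.5 with water and 77 to 93.3 with EtOH fell by 0.80 ± 0.16 (adjusted p = 0.00522), and the remaining probe was detected on 6 of 23 arrays. With EtOH the dim probe was near the floor, as the weakest detected signals of these arrays were 63.9 and 65.5. The TAPBP call rested on most arrays of the experiment: it was lost on leaving out EtOH replicate 1 or 2 or water replicate 1 or 3 of SUDHL-2, or EtOH replicate 3 or water replicate 1 or 2 of SUDHL-4, with adjusted p from 0.0563 to 0.257. It was also lost under 9 of 14 alternatives, among them the replicate block with the numbers of the sample names (-0.31, adjusted p = 0.106).

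Together 1 of 9 genes rose and 2 fell with EtOH in SUDHL-2, where 16.2% of all entries changed (8.94% rose and 7.24% fell). The median of the 9 genes was 0.0002 and that of all entries 0.05. Like HLA-F and HLA-B, 23.3% of all entries were higher on both EtOH arrays than on every water array. Like TAP2 and TAPBP, 14.8% were lower on both. Of 6 measured B cell markers 2 rose and 2 fell here (-0.91 to 0.80), and of 7 measured genes of activated B-cell-like DLBCL 2 rose and 1 fell. Their part in the values of HLA-F, TAP2 and TAPBP was not tested.

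**Figure D3:**
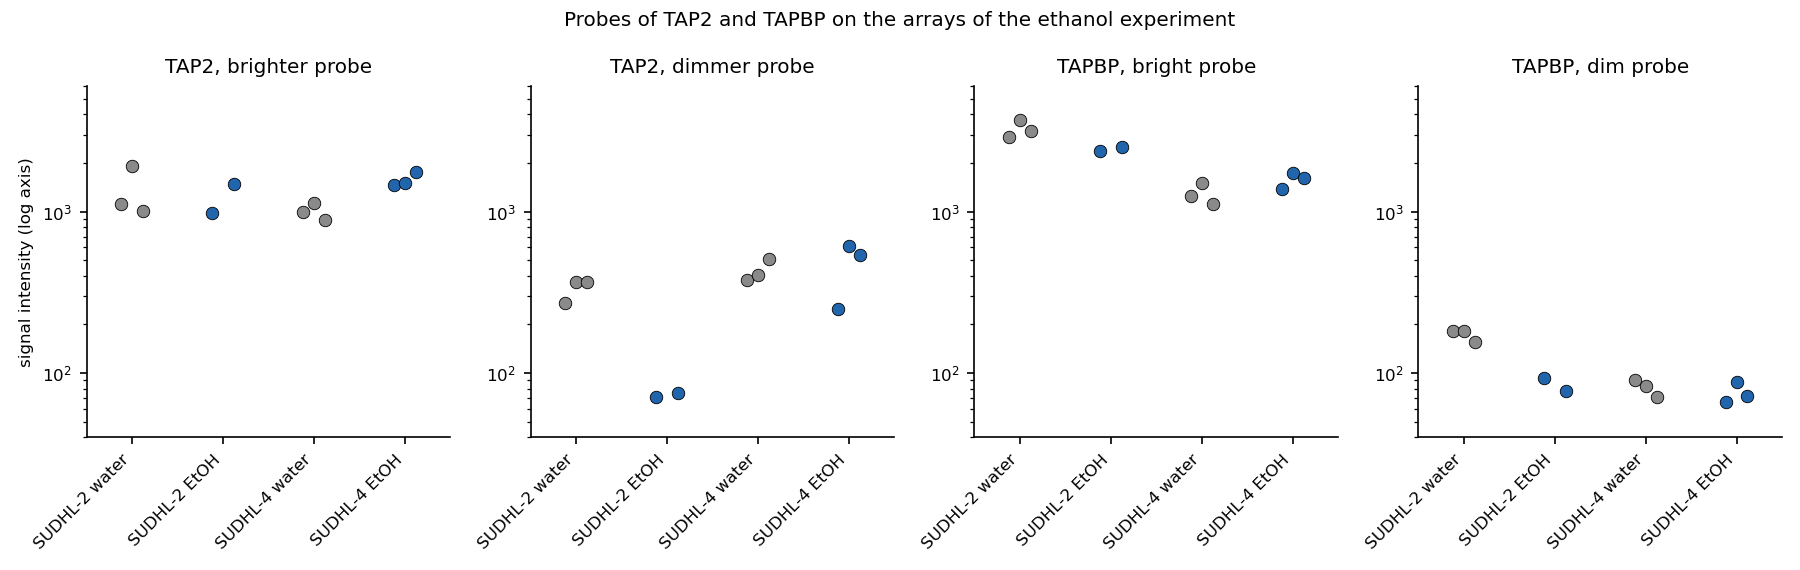
Signal intensity (vertical log axis) of single probes of TAP2 and TAPBP on the 11 arrays of the EtOH experiment, 1 point an array (grey: water, blue: EtOH). In SUDHL-2 the dimmer TAP2 probe drops from 272.4 to 368.5 to 71.1 to 75.1 while the brighter probe stays between 974.8 and 1916.

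With EtOH in SUDHL-4, none of the 9 genes passed the test, in a comparison where 57 of all entries (0.389%) did and 14% had an unadjusted p below 0.05, as 3 of the 9 genes had (limma). The gene nearest to the threshold was HLA-E, with levels of 2.33, 2.57 and 2.55 with water and 2.97, 3.28 and 2.88 with EtOH. All EtOH arrays were above all water arrays, and the signals went from 1160 to 1385 up to 1917 to 2422. The log2 difference of HLA-E was 0.56 ± 0.12 (1.48-fold, adjusted p = 0.0723). HLA-B (0.28 ± 0.10, adjusted p = 0.221) and TAP1 (0.23 ± 0.09, adjusted p = 0.279) were likewise higher on every EtOH array, and B2M lower on every EtOH array (-0.26 ± 0.12, adjusted p = 0.375). Such separation was common here: 12.1% of all entries were higher on every EtOH array than on every water array, and 24.6% were lower. HLA-E and HLA-B would have passed by the looser thresholds of the study's methods (unadjusted p below 0.05, a false discovery rate of 0.3 and a Z-ratio above 1.5), which 2 of 9 genes met upward, as 5.27% of all entries did. The brighter TAP2 probe was higher on every EtOH array here (0.51 ± 0.13, adjusted p = 0.114) and the dimmer one was not (-0.08 ± 0.26). The median of the 9 genes was -0.02 and that of all entries -0.03, with NLRC5 counted though it was not above background here. Without NLRC5 the middle of the other genes would lie between HLA-F (-0.02) and TAP2 (0.21).

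The TAP2 response to EtOH was 1.15 ± 0.21 lower in SUDHL-2 than in SUDHL-4 (adjusted p = 0.0122), the 1 call among the 9 genes at a background of 5.31% of entries. It was lost without SUDHL-2 EtOH replicate 1 (adjusted p = 0.0612) and without a detection filter (adjusted p = 0.0624). The HLA-F response was 0.59 higher in SUDHL-2 (adjusted p = 0.0950), and passed with the replicate numbers of the titles as a block (0.59, adjusted p = 0.0216) or those of the sample names (adjusted p = 0.0428), with median centring (adjusted p = 0.0454) or without SUDHL-4 EtOH replicate 1 (adjusted p = 0.0261).

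EtOH and INK128 were then set against each other within a line. In SUDHL-2 the TAP1 response to EtOH exceeded that to INK128 by 0.73 ± 0.19 (adjusted p = 0.0225), since TAP1 fell with INK128 while with EtOH it was 3.31 and 3.12, against 3.16 to 3.24 with water. This was 1 of 9 genes, at a background of 6.2% of entries, and the call was lost with the replicate block of the titles' numbers (0.73, adjusted p = 0.0529), with normexp background correction (adjusted p = 0.0504), with only the groups compared (adjusted p = 0.139), without SUDHL-2 EtOH replicate 1 (adjusted p = 0.123) and without SUDHL-2 EtOH replicate 2 (adjusted p = 0.0509). In SUDHL-4 the HLA-B response to EtOH was 1.33 ± 0.21 below that to INK128 (adjusted p = 0.000393), the 1 call of 9 at a background of 9.25%. For HLA-E the difference of -0.65 ± 0.26 (adjusted p = 0.133) passed without SUDHL-2 INK128 replicate 1 (adjusted p = 0.0338) or SUDHL-4 INK128 replicate 3 (adjusted p = 0.0435).

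At baseline the lines differed in most of these genes, as in most genes on the array. With DMSO, 7 of 9 genes differed between SUDHL-2 and SUDHL-4 (4 higher and 3 lower in SUDHL-2), where 56.1% of all entries did (26.9% higher and 29.1% lower). With water 7 of 9 differed (5 higher and 2 lower), where 65.9% did (27.5% higher and 38.3% lower). B2M was higher in SUDHL-2 with DMSO and, less stably, with water. Its mean was 5.68 ± 0.52 (SD, n = 3) in SUDHL-2 with DMSO, against 4.81 ± 0.14 in SUDHL-4, a log2 difference of 0.87 (adjusted p = 0.00655), and 0.45 with water (adjusted p = 0.00771). The DMSO call was lost without a detection filter (adjusted p = 0.103). The water call was lost there too (adjusted p = 0.0798), with Z-scores over all probes (adjusted p = 0.0978), in the deposited Z-score table (0.27, adjusted p = 0.111) and with all 23 arrays in 1 fit (adjusted p = 0.0654). Both B2M probes were among the brightest on every array, at the 95.6th to 99.5th percentile of kept probes. On the SUDHL-2 DMSO arrays the brighter probe had signals of 21030, 21454 and 19042 before scaling and levels of 5.13, 6.36 and 5.93 after it. The highest signals of any probe on these arrays were 25742 to 28187. The part of the scaling in the spread of B2M was not tested. TAP1 was also higher in SUDHL-2 (0.66 with DMSO, adjusted p = 0.00210, and 1.75 with water, adjusted p = 1.57e-08). TAP2, as the mean of its probes, was lower in SUDHL-2, by 0.86 with DMSO (adjusted p = 0.000834) and by 0.53 with water (adjusted p = 0.00690). Only its dimmer probe separated the lines. With DMSO that probe read -0.91 to -0.21 on SUDHL-2 arrays, against 0.64 to 1.23 on SUDHL-4 arrays. With water it read -0.15 to 0.30, against 0.72 to 1.15. Levels of the brighter probe overlapped between the lines with either vehicle (with DMSO 1.89 to 2.35, against 2.25 to 2.52). A direction opposite to that of TAP1 was thus clear only for the dimmer TAP2 probe.

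Among the heavy chains, HLA-B was higher in SUDHL-2, by 0.54 with DMSO (adjusted p = 0.0188) and by 1.85 with water (adjusted p = 1.79e-08). The DMSO call was lost without SUDHL-2 DMSO replicate 1 (adjusted p = 0.0613), SUDHL-4 DMSO replicate 1 (adjusted p = 0.0712) or SUDHL-4 DMSO replicate 3 (adjusted p = 0.0643), and under quantile normalization (adjusted p = 0.0688). HLA-F was lower in SUDHL-2, with log2 differences of -1.69 with DMSO (adjusted p = 2.35e-05) and -0.68 with water (adjusted p = 0.000581). HLA-E was lower in SUDHL-2 with DMSO and higher with water. With DMSO it was 1.80, 1.77 and 1.89 in SUDHL-2 and 2.97 to 3.01 in the other line, a log2 difference of -1.17 (adjusted p = 0.000372). With water it was 3.02, 2.80 and 2.93 in SUDHL-2 and 2.33 to 2.57 in the other line, a difference of 0.44 (adjusted p = 0.00905) that was not called with all 23 arrays in 1 fit (adjusted p = 0.0521). ERAP1 differed with DMSO (0.60, adjusted p = 0.00122) and not with water (0.03). Its kept probe lay near the floor in SUDHL-4 with DMSO, at 1.22 to 1.41 times the weakest detected signal. Alternatives gave DMSO differences of 0.31 to 0.87. TAPBP, as the mean of its probes, differed with water (0.40, adjusted p = 0.00233) and not with DMSO (0.01). Its bright probe with DMSO lay at the 84th to 87th percentile of kept probes in SUDHL-2 and the 88th to 90th in SUDHL-4. With water these were the 90th to 92nd and the 85th to 88th.

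For some genes the control arrays of SUDHL-2 stood apart between the experiments. From DMSO to water the mean level in SUDHL-2 went from 0.58 to 1.79 for HLA-B, from 1.82 to 2.92 for HLA-E, from -0.05 to 1.27 for HLA-F and from 2.36 to 3.20 for TAP1. The corresponding means in SUDHL-4 went from 0.04 to -0.06, from 2.99 to 2.48, from 1.63 to 1.95 and from 1.71 to 1.45. B2M went from 5.68 to 5.45 in SUDHL-2 and from 4.81 to 5.00 in SUDHL-4, and TAP2 from 0.80 to 0.97 and from 1.66 to 1.50. In SUDHL-2 these shifts of B2M and TAP2 were smaller. They went in opposite directions in the lines, as did those of HLA-B, HLA-E and TAP1. The means of HLA-C, another classical heavy chain, were -0.94 and 0.35 in SUDHL-2, against -1.51 with either vehicle in SUDHL-4. The SUDHL-4 level was about that of ERAP1 there (-1.50 with DMSO, -1.47 with water), near the floor, where a change would be hard to see. The change of the line difference between experiments was tested over all 23 arrays, a comparison chosen after these values were seen. It was positive for HLA-E (1.60 ± 0.26, adjusted p = 0.000152), HLA-B (1.31, adjusted p = 0.000156), TAP1 (1.10, adjusted p = 0.000157) and HLA-F (1.00, adjusted p = 0.00583) and negative for ERAP1 (-0.57, adjusted p = 0.00608). These were 5 of 9 genes, at a background of 38.8% of entries. For B2M the change was -0.42 (adjusted p = 0.262) and for TAP2 0.33 (adjusted p = 0.276), so neither passed. B2M passed without SUDHL-2 DMSO replicate 1 (-0.70, adjusted p = 0.0247), and so did TAPBP without that array (adjusted p = 0.0497), SUDHL-2 INK128 replicate 1 (adjusted p = 0.0287) or SUDHL-2 INK128 replicate 3 (adjusted p = 0.0435). B2M also passed with median centring (-0.54, adjusted p = 0.0419), and TAPBP under 5 alternatives (adjusted p = 0.00298 to 0.0430).

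The chaperones and relatives that work beside these genes were tested in the same fits. Of 7 measured loading partners (the heavy chains HLA-C and HLA-G, the chaperones CALR and CANX, UGGT1, TAPBPL and ERAP2), 1 changed with INK128 in SUDHL-2 (3.62% of all entries), 1 with INK128 in SUDHL-4 (15.4%) and 1 with EtOH in SUDHL-2 (16.2%). With EtOH in SUDHL-4 it was 0 of 7 in limma (0.389% of all entries), and 0 at an unadjusted p below 0.05 (14% of all entries). CANX (calnexin, which holds newly made heavy chains) fell by 1.02 ± 0.19 with INK128 in SUDHL-2 (adjusted p = 0.0136), with both of its probes lower. ERAP2, the partner peptidase of ERAP1, rose by 0.61 ± 0.18 with INK128 in SUDHL-4 (adjusted p = 0.0389). CALR (calreticulin, which keeps the heavy chain in the loading complex) rose by 0.60 ± 0.13 with EtOH in SUDHL-2 (adjusted p = 0.00947).

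None of the 5 subunits and activators of the immunoproteasome, which cuts many class I peptides, changed with INK128 in limma, where 3.62% (SUDHL-2) and 15.4% (SUDHL-4) of all entries did. The unadjusted p was below 0.05 for 0 in SUDHL-2 (17.6% of all entries) and 2 in SUDHL-4 (27% of all entries). PSMB9, whose gene shares its promoter region with TAP1, differed by -0.03 ± 0.13 with INK128 in SUDHL-2 (adjusted p = 0.947), where TAP1 fell. With EtOH in SUDHL-2, PSMB8 (the subunit gene next to TAP1 and TAP2) fell by 0.85 ± 0.17 (adjusted p = 0.00586), 1 of 5 where 7.24% of all entries fell. Its 4 probes gave -2.32, -0.60, -0.54 and 0.05, so that PSMB8 probes, like those of TAP2, differed in their response.

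Of 12 measured regulators of class I genes, IRF1, a factor that binds interferon elements, fell in SUDHL-2 with INK128 (by 1.25 ± 0.21, adjusted p = 0.00883) and with EtOH (by 0.62 ± 0.13, adjusted p = 0.00658). With INK128 in SUDHL-4 its log2 difference was 0.45 (adjusted p = 0.188). There IRF8, a B cell interferon regulatory factor, rose by 1.03 (adjusted p = 0.000294), NFKB1, a subunit of NF-kB, rose by 0.47 (adjusted p = 0.0271) and RFXAP, a subunit of the X-box factor, fell by 0.54 (adjusted p = 0.0210). With EtOH in SUDHL-2, RELA, the partner of NFKB1, fell by 2.20 ± 0.15 on its single kept probe (adjusted p = 9.99e-06) and NFYA, a subunit of the CCAAT-box factor, fell by 0.54 (adjusted p = 0.00872). In all, 1 of 12 regulators fell with INK128 in SUDHL-2 (1.47% of all entries), 2 rose and 1 fell with INK128 in SUDHL-4 (8.27% and 7.17%), and 3 fell with EtOH in SUDHL-2 (7.24%).

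MHC class II genes present peptides from outside the cell. With INK128 in SUDHL-4, 6 of 11 measured class II genes rose and 0 fell (8.27% of all entries rose), with a median log2 difference of 0.80 against -0.06 over all entries. HLA-DMB (1.31, adjusted p = 2.96e-05), HLA-DOA (1.23, adjusted p = 3.54e-05) and HLA-DOB (1.42, adjusted p = 6.22e-05), whose products edit or restrain class II peptide loading, were among them. In SUDHL-2 2 of 11 rose with INK128 (HLA-DMB by 0.68 and HLA-DOB by 0.89), where 2.15% of all entries rose, and 3 with EtOH (HLA-DMA by 0.68, HLA-DOB by 0.67 and HLA-DPA1 by 0.48), where 8.94% did. With EtOH in SUDHL-4 0 of 11 passed in limma and 7 had an unadjusted p below 0.05 (14% of all entries), with a median of 0.30 against -0.03 over all entries.

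Of 25 interferon-stimulated genes, 10 rose with INK128 in SUDHL-4 (8.27% of all entries rose), among them the exonuclease ISG20 (2.39, adjusted p = 3.57e-05), IFIT2 (1.17, adjusted p = 0.000133) and the regulator IRF7 (0.84, adjusted p = 0.000351). In SUDHL-2 0 of 25 changed with INK128 (3.62% of all entries did), and 6 had an unadjusted p below 0.05 in limma (17.6% of all entries). With EtOH 1 of 25 rose in SUDHL-2 (MX2, by 0.60, where 8.94% of entries rose) and 2 fell in SUDHL-4 (IFI6, by 0.83, and ISG15, by 0.84, where 0.082% fell). The fall of IFI6 rested on 1 of its 2 probes, which gave -1.33 (adjusted p = 0.0181) and -0.32 (adjusted p = 0.294). Of 7 class I-like genes, CD1D (0.70, adjusted p = 0.0268) and CD1A (0.44, adjusted p = 0.0281) rose with INK128 in SUDHL-4, that is 2 of 7 where 8.27% of all entries rose. MICB, a ligand of the NKG2D receptor, rose with EtOH in SUDHL-2 (0.64, adjusted p = 0.00381), 1 of 7 where 8.94% rose.

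**Figure D4:**
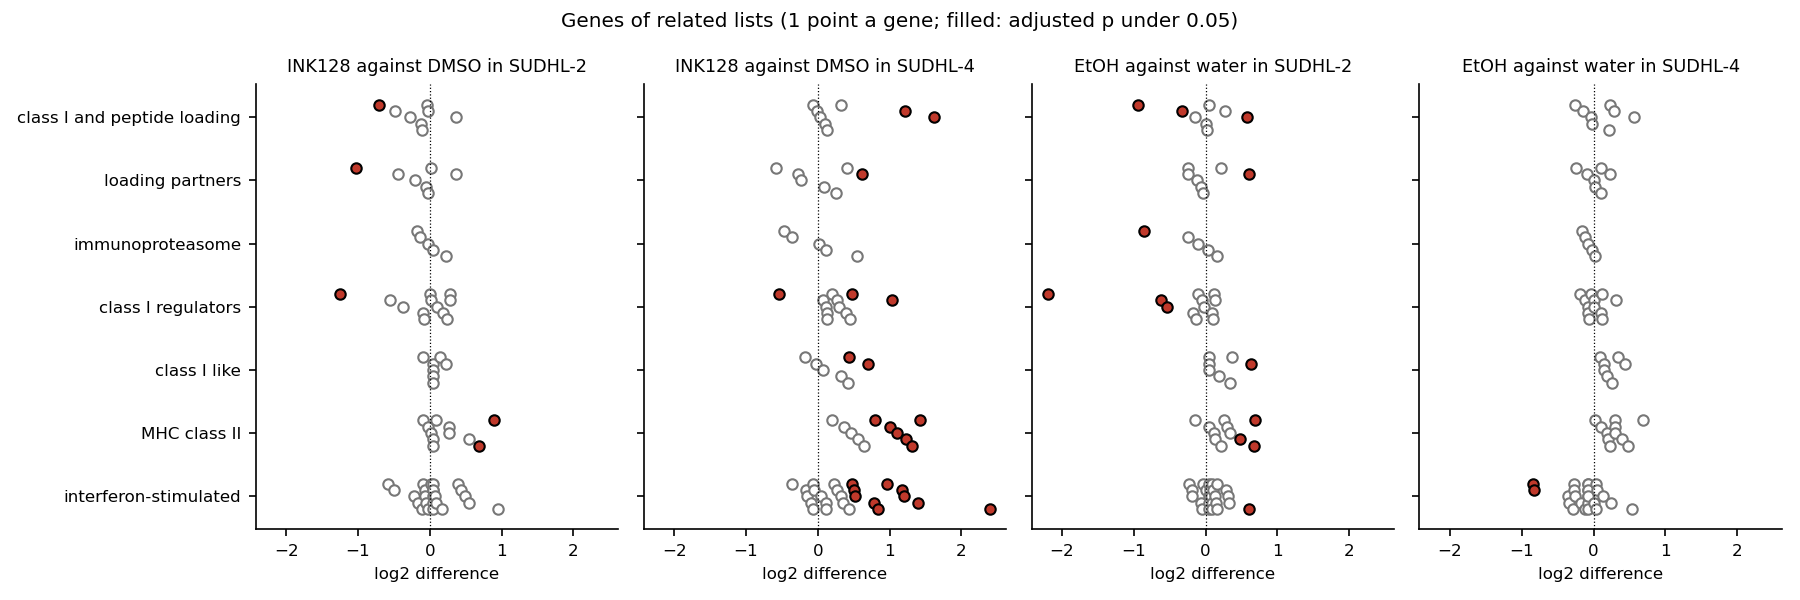
Log2 difference between treated and control arrays (horizontal axis) in the 4 treatment comparisons for genes of class I and peptide loading (NLRC5 left out) and of 6 related lists, 1 point a gene, spread vertically for legibility. Filled points passed an adjusted p of 0.05. With INK128 in SUDHL-4, 6 class II and 10 interferon-stimulated genes lie filled to the right of 0, beside HLA-B and HLA-E.

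The genes most alike in pattern were found by correlation over the 23 arrays, after each line and experiment had been centred, so that the points share treatments and arrays. Among the 9 genes the closest pair was HLA-B and HLA-E (r = 0.89), while TAP1 and TAP2 had r = 0.33 and B2M and HLA-B r = -0.09. Outside the list SIDT2 was closest to HLA-B (r = 0.96), and it rose by 1.02 with INK128 in SUDHL-4 (adjusted p = 0.000162). HLA-DRB5, a class II chain, was closest to HLA-E (r = 0.90), and HLA-H, a class I pseudogene of similar sequence, to HLA-F (r = 0.94). In SUDHL-2 the means of HLA-DRB5 with DMSO (-1.98) and INK128 (-1.94) equalled those of NLRC5, which was not above background there. MCCC2, a mitochondrial carboxylase subunit, was closest to TAP2 (r = 0.93), and fell by 1.82 with EtOH in SUDHL-2 (adjusted p = 0.00056). HSPA8 was closest to B2M (0.95), BLOC1S4 to TAP1 (0.84), RBM38 to TAPBP (0.90) and TRIM5 to ERAP1 (0.80). NLRC5 was closest to LDHC (0.97), at levels where NLRC5 was mostly not above background. Means of LDHC equalled those of NLRC5 in SUDHL-4 with DMSO (-1.90) and INK128 (-1.97), so this r largely reflects values at the floor. The mean of the 9 genes was followed most closely by CXCR5 (0.87), MBTPS1 (0.84), HLA-DRB4 (0.82), TNFRSF14 (0.82) and PRKD2 (0.82).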

How the data were processed

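Polysomal RNA was measured on Illumina HumanHT-12 BeadChips, 1 sample an array. The labels give version 4.0 of the array, whose annotation named the probes, and the methods another. The authors deposited signal intensities, not normalized, with detection p-values per probe (GenomeStudio 1.9.0 per the labels), and a score table, the Z-scores of log signals, which equalled Z-scores computed here over all probes.

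Signals were floored at the weakest detected signal of the array (59.4 to 91.4), log2 transformed, and Z-scored per array over 18136 probes detected (p at most 0.02) on all arrays of at least 1 group, then multiplied by the mean SD (2.03). Probes of a gene were averaged. The test was limma 3.58.1 (lmFit, eBayes, R 4.3.3) with a mean per group, two-sided, per experiment (12 and 11 arrays) or over 23 arrays for comparisons across experiments. P-values were adjusted over 14636 entries by Benjamini-Hochberg, with calls below 0.05. The steps were tested on simulated data.

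The methods call the replicates independent, but the labels do not name separate cultures, so p-values measure the spread between these arrays, which may be technical. The number of arrays limits the precision. Titles number the replicates. Same-numbered EtOH and water arrays deviated together (r = 0.141 to 0.545 in all 5 pairs), so the block was printed where it changed a call. Sample names number some arrays otherwise, and by them 1 SUDHL-4 pair had r = 0.043. INK128 and DMSO arrays did not (r from -0.305 to 0.467). Slide and scan were not given in the sources used here.

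Alternatives changed the scaling, filter, fit, block and thresholds, and left out each array in turn. The members and lists were chosen with earlier results of these data known. Named genes were the 9 members, up to 3 genes per related list with the smallest p among those called, and the most correlated genes.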

Additional observations from a re-analysis of the deposited data

Results flagged for a closer look

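These results were singled out because the response or the line difference differed between groups by a test of the difference itself. The HLA-B response to INK128 differed between lines by -1.73 (SUDHL-2 minus SUDHL-4, log2), and the HLA-E response by -1.32. The HLA-E call was the less stable, as it held in only 5 of 12 fits that left out 1 array. The TAP2 response to EtOH differed by -1.15, through 1 of its probes. The difference between the lines, water minus DMSO, changed by 1.60 for HLA-E, by 1.31 for HLA-B, by 1.10 for TAP1, by 1.00 for HLA-F and by -0.57 for ERAP1. Vehicle, culture time and experiment cannot be told apart in that change. It was tested after these values were seen, and 38.8% of all entries passed. Groups had 2 or 3 arrays, so that no test for a stray array was run.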

How the results depend on the processing

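The numbers of called genes, of 9, are compared here. In SUDHL-2 with INK128 the count of 1 went to 0 with the SUDHL-2 arrays alone and to 2 by the study's thresholds, and leaving out 1 array gave 0 to 1. In SUDHL-4 with INK128 it was 2 under every alternative run except with only probes detected on all arrays, where TAPBP, then left with its bright probe, made it 3, and leaving out 1 array also gave 2. In SUDHL-2 with EtOH the count of 3 went to 1 without a detection filter and to 1 with all 23 arrays in 1 fit. It went to 2 under the alternatives where only HLA-F or only TAPBP lost its call. Leaving out 1 array gave 1 to 3. In SUDHL-4 with EtOH it was 0 under every alternative other than the study's thresholds, which gave 2. At baseline the study's thresholds gave 1 (DMSO) and 2 (water), and leaving out 1 array gave 6 to 7 and 7. Other alternatives ended baseline calls of B2M with both vehicles, HLA-B with DMSO and HLA-E with water, with the values given above. For the line difference in the INK128 response the count of 2 went to 1 without a filter. With TAP1 added it went to 3 with all 23 arrays in 1 fit and by the study's thresholds. Leaving out 1 array gave 1 to 3. For that in the EtOH response the count of 1 went to 2 with median centring, to 0 without a filter, to 3 by the study's thresholds and to 2 with a replicate block of either numbering, and leaving out 1 array gave 0 to 2. For EtOH minus INK128 in SUDHL-2 the count of 1 went to 0 with normexp, with only the groups compared and with the replicate block of the titles' numbers, and to 2 with each probe apart, and leaving out 1 array gave 0 to 1. In SUDHL-4 it went to 2 by the study's thresholds, and leaving out 1 array gave 1 to 2. The causes were not tested. The replicate block changed no other call, except that TAPBP with EtOH in SUDHL-2 was lost (adjusted p = 0.106) with the numbers of the sample names, which differ from those of the titles. No paired analysis was possible at baseline because the block lies within a line.

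None of the calls changed direction. TAP2 with EtOH in SUDHL-2 and HLA-B and HLA-E with INK128 in SUDHL-4 passed under every alternative and without any 1 array, except that with each probe apart only the dimmer TAP2 probe passed (the brighter one gave 0.04, adjusted p = 0.885), whereas HLA-F lost its call under quantile normalization, without a filter and with all arrays (adjusted p up to 0.0908), and TAPBP under 9 of 14 alternatives. NLRC5 and dim probes near background limit what can be seen of small changes.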
